A study of Rattus norvegicus with 4 samples.

Results

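Solute carriers are membrane proteins that move amino acids, sugars, ions, metals, vitamins and other small molecules across the plasma membrane and the membranes of organelles. The carriers described here are the probe sets of a rat array with a single gene symbol built like Slc1a3 (the letters Slc, a family number, the letter a and a member number), without Slc2a1, Slc2a3, Slc16a1, Slc16a3 and Slc4a1. They were 367 of the 31099 probe sets on the array and stood for 269 of 14218 genes that had a single-symbol probe set. Slc4a1ap and Slc7a6os match the same letters but are not carriers: the first encodes kanadaptin and the second is the opposite-strand neighbour of Slc7a6. Both were kept, under other or unassigned.

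Telencephalon, the front of the embryonic forebrain, was compared between Pax6 mutant embryos homozygous for rSey2 (rSey2/rSey2) and wild-type embryos, all of Sprague-Dawley background and E11.5, with 2 Affymetrix arrays of each genotype. Pax6 is a paired-box and homeodomain transcription factor of forebrain progenitors. The design text gives 13 telencephalons per experiment, so an array stands for pooled embryos. Whether both arrays of a genotype had a pool of their own is not stated, and if they shared one, the SEs and p-values would cover technical spread alone. Litters are not named in the labels, so the p-values here reflect how far these arrays differ from each other, which may in part be technical.

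At this stage the telencephalon is mostly neuroepithelium, a sheet of dividing progenitors that still has few neurons and takes up nutrients from the fluid in the ventricle and from the vessels that are growing around it. Dividing cells draw on carriers for neutral and cationic amino acids, mitochondrial carriers exchange ATP, phosphate and metabolites with the cytosol, and chloride carriers set the ion gradient that later decides how neurons respond to GABA. Carriers that load or clear neurotransmitters belong mostly to differentiated neurons and glia.

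Values are log2 GCRMA values per probe set and array, and a difference is mutant minus wild type on that scale, with its standard error (SE) from limma. A probe set was left out as dim where its mean over the 4 arrays was under 3.21, and a gene is represented by its brightest tested probe set. Tests could be made for 190 probe sets of 144 carrier genes. The other 177 probe sets were dim, 78 of them at the lowest value of the table, 2.07, on all 4 arrays, and 125 genes had no tested probe set. Of the tested probe sets, 3 had the mean of 1 genotype under the dim level, and 0 of the dim ones had a difference of 1 or more in size.

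Markers of forebrain neuroepithelium were present: the 7 markers analysed here (Lhx2, Otx2, Emx2, Six3, Sox2, Nes and Hes5) all passed the dim filter. In the mutant 6 of the 7 were higher and Emx2 was lower, and their summed level, as log2, was 14.96 and 14.83 in the mutant arrays and 14.67 and 14.67 in the wild-type arrays. Markers of other cell types also moved with genotype. All 7 tested erythroid markers were higher in the mutant (Epb42 was dim), and their summed level was 16.25 and 16.25 in the mutant arrays and 16.04 and 16.05 in the wild-type arrays. All 9 tested endothelial markers were higher as well, with sums of 11.75 and 11.94 in the mutant arrays and 11.57 and 11.59 in the wild-type arrays. Neuron markers were higher for 3 of 4 (sums of 9.78 and 9.53 in the mutant arrays and 9.25 and 9.73 in the wild-type arrays). Mesenchyme markers were higher for 2 of 5 (12.32 and 12.47 in the mutant arrays, 12.65 and 12.61 in the wild-type arrays) and surface ectoderm markers for 1 of 4 (8.43 and 8.54 in the mutant arrays, 8.82 and 8.54 in the wild-type arrays). The sums of the erythroid, endothelial and neuroepithelial lists separated the genotypes upward in the mutant and that of mesenchyme downward, while the other sums overlapped. Sums were made of unlogged values, so the brightest markers weigh most, such as Col3a1 (difference -0.25) in mesenchyme. In the surface ectoderm list Krt18 (-0.73) and Epcam (-0.92) were lower and Cdh1 (0.59) higher, each without overlap, and Krt8 (-0.55) overlapped. The part of these cell types in the carrier results was not tested. In whole tissue a change in the number of cells of a type and a change in RNA per cell cannot be told apart.

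No carrier passed the test. At an adjusted p under 0.05 in limma (Benjamini-Hochberg over all 18625 tested probe sets), 0 of 190 carrier probe sets were called, against a background of 0% of all tested probe sets, and the lowest adjusted p of a carrier was 1. At an unadjusted limma p under 0.05 there were 6 carrier probe sets, or 3.16%, against a background of 3.65%, so the share was near that of all probe sets in this fit. A 2-fold difference in all 4 mutant and wild-type pairings was reached by 0 carrier probe sets, against a background of 0.172%. With 2 arrays against 2, an exact permutation test has 3 splits and no two-sided p under 0.333, so none is given.

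Differences of the tested carrier probe sets ran between -0.99 and 0.84 (the upper end being Slc18a2, whose wild-type mean was under the dim level), and 12 were 0.5 or more in size, 5 of them higher and 7 lower in the mutant. The median difference was -0.003, against 0 for all tested probe sets, and the median size was 0.128, against 0.098. By gene, 74 of 144 carriers had a difference above 0 (51.4%, background 49.7%). Both mutant arrays lay above both wild-type arrays for 18 genes (12.5%, background 12.2%) and below them for 20 genes (13.9%, background 12.1%). These shares are close to those over all genes.

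The precision for a single probe set is shown by the 95% intervals of the carrier probe sets' differences. Their half-width was 0.20 at the narrowest, 0.48 at the median and 2.40 at the widest. The narrowest belongs to probe sets with the same value on all 4 arrays, such as 1 of Slc6a9, which carry no measurable difference. The intervals are not adjusted for the number of tests, so the adjusted test could have missed changes larger than these half-widths. Of the tested genes, 34 had more than 1 tested probe set, and in 14 of them the probe sets differed in sign. The plot of differences by substrate class shows all 144 genes.

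**Figure D1:**
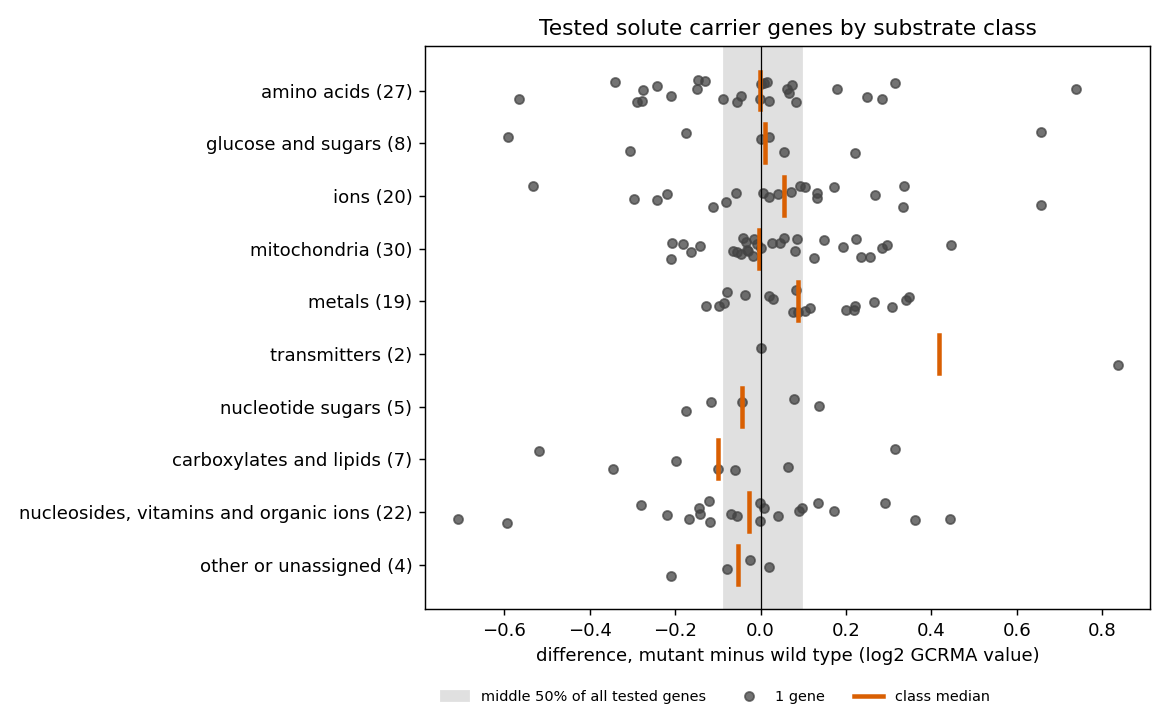
Differences of the 144 tested carrier genes, mutant minus wild type in log2 GCRMA units, by substrate class with the number of tested genes in brackets; each point is 1 gene at its brightest probe set, the orange bar is the class median and the grey band holds the middle 50% of all tested genes. Class medians lie near 0 for amino acids (-0.00), glucose and sugars (0.01) and mitochondria (-0.00), and at 0.06 for ions and 0.09 for metals.

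The 4 genes whose brightest probe set had an unadjusted limma p under 0.05 were Slc19a2, Slc5a3, Slc39a14 and Slc8a1. Slc19a2 brings thiamine, vitamin B1, into cells. Its values were 5.73 and 5.64 in the mutant arrays and 6.25 and 6.54 in the wild-type arrays. Both mutant arrays were the lower ones, with a difference of -0.71 (SE 0.14, limma unadjusted p = 0.0115, adjusted p = 1, n = 2 arrays each), and leaving out each array in turn gave -0.85 to -0.56.

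Slc5a3 couples the uptake of myo-inositol, an osmolyte and the base of inositol lipids, to sodium. It had 8.43 and 8.19 in the mutant arrays and 8.83 and 8.97 in the wild-type arrays, a difference of -0.59 (SE 0.13, limma unadjusted p = 0.0155, adjusted p = 1). The groups did not overlap, and the difference ranged between -0.71 and -0.47 with each array left out in turn. Where groups do not overlap, as for Slc5a3 and Slc19a2, leaving out 1 array cannot turn the sign, so these ranges show size alone.

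Slc39a14 encodes ZIP14, an importer of zinc that also carries iron and manganese. It read 8.38 and 8.23 in the mutant arrays and 7.96 and 8.04 in the wild-type arrays, a difference of 0.31 (SE 0.10, limma unadjusted p = 0.044, adjusted p = 1). A dimmer probe set of the gene was lower in the mutant by -0.10, so the probe sets disagreed. Slc8a1, the sodium-calcium exchanger that removes calcium from cells, had 7.07 and 7.27 in the mutant arrays against 6.81 and 6.87 in the wild-type arrays, a difference of 0.33 (SE 0.11, limma unadjusted p = 0.045, adjusted p = 1). Here the groups were apart by less than they were for Slc19a2.

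A further pair of probe sets under that p belonged to genes whose brighter probe set missed it, and both were chosen after their values were seen. For Slc25a36, which carries pyrimidine nucleotides into mitochondria, the dimmer probe set had 9.71 and 9.62 in the mutant arrays and 9.97 and 9.99 in the wild-type arrays (difference -0.31), and the brighter one a difference of -0.21. For Slc44a1, a choline carrier, the dimmer tested probe set had 6.20 and 6.09 in the mutant arrays and 6.43 and 6.40 in the wild-type arrays (difference -0.27), and the brighter one a difference of -0.14. In both genes all tested probe sets were lower in the mutant.

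**Figure D2:**
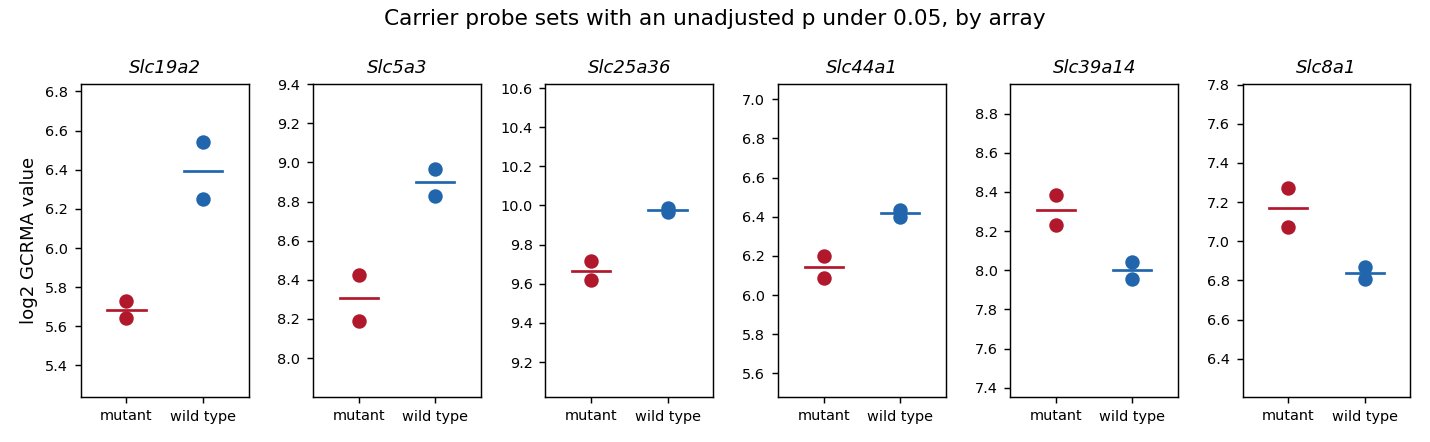
Log2 GCRMA value on each array for the 6 carrier probe sets with an unadjusted limma p under 0.05, mutant left and wild type right in each panel; points are arrays, lines are means of 2 arrays, and every panel spans the same number of log2 units around its own level. In each panel the groups do not overlap; Slc19a2, Slc5a3, Slc25a36 and Slc44a1 are lower in the mutant and Slc39a14 and Slc8a1 are higher.

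Windows at the RefSeq start of 3 of these genes are shown because Pax6 has a homeodomain, whose core letters TAAT can be looked for. That transcription begins there in this tissue was not tested, so a window need not be a promoter. In Slc8a1 the start lies beside a run of T and the letters CAG, which can close an intron. The windows run from 250 bases before to 50 after the RefSeq start on build GRCr8, 5′ to 3′ on the gene's strand, and capitals mark TAAT on either strand (ATTA on the printed one). All 3 genes lie on the plus strand: Slc19a2 at chr13:79134868-79135167, Slc5a3 at chr11:44799537-44799836 and Slc8a1 at chr6:19023309-19023608.
Slc19a2: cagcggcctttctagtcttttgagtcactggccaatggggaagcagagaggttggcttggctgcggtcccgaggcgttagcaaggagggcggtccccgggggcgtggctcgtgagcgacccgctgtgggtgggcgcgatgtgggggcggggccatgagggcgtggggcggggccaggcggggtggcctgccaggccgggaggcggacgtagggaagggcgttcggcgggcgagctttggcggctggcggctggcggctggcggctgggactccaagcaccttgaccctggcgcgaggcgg
Slc5a3: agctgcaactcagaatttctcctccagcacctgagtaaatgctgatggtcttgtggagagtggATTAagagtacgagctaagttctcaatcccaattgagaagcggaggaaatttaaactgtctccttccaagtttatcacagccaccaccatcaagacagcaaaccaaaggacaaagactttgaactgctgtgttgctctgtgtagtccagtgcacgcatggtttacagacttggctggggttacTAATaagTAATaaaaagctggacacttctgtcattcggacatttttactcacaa
Slc8a1: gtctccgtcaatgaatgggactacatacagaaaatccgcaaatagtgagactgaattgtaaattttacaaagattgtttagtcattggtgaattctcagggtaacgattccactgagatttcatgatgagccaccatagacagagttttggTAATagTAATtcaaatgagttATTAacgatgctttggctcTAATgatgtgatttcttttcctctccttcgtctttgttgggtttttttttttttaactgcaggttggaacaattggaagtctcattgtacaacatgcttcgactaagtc
The Slc19a2 window holds 0 matches and is 72.7% G and C, the Slc5a3 window holds 3 matches at 43.3%, and the Slc8a1 window holds 4 at 36.3%. The letters occur in 60.6% of all 33469 windows of this length, and in 50 of the 128 tested carrier genes that have one (39.1%). Only the carriers were held to the dim filter, and base composition was not matched. The 2 shares therefore do not show that carriers have fewer matches than like genes. A match describes the letters only and is not a binding site, and no match says nothing about Pax6.

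Amino acid carriers were the largest tested class after the mitochondrial ones, with 27 of 50 genes tested, 13 higher and 14 lower in the mutant and a median difference of -0.00. Both mutant arrays lay above both wild-type arrays for 1 gene (background 12.2%) and below them for 4 (background 12.1%). The class median was 0.13 without mutant replicate 1 and -0.12 without mutant replicate 2, so its sign depended on which array was used.

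For the carriers that feed growth no difference between genotypes passed the test. Slc7a5 and its partner Slc3a2 form the exchanger LAT1 for large neutral amino acids. Slc3a2 had 9.94 and 10.03 in the mutant arrays and 10.03 and 10.24 in the wild-type arrays, a difference of -0.15 (SE 0.11). Slc7a5 had 7.49 and 8.25 in the mutant arrays and 7.23 and 7.94 in the wild-type arrays, a difference of 0.28 with a 95% interval of -0.97 to 1.54. The replicates of Slc7a5 lay farther apart than the genotype means. Slc1a5, the glutamine exchanger ASCT2, differed by -0.06 (SE 0.17), Slc7a1, the main carrier of arginine and lysine, by 0.07 (SE 0.11), and Slc6a6, which takes up taurine, by 0.01 (SE 0.09). Dimmer probe sets went the other way in both: those of Slc7a1 differed by -0.24, without overlap, and -0.39, with the mutant mean under the dim level, and that of Slc6a6 by -0.31.

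Glutamate uptake by radial progenitors and astrocytes rests on Slc1a3, known as GLAST, a widely used marker of radial glia. It read 7.17 and 7.20 in the mutant arrays and 7.37 and 7.49 in the wild-type arrays. The groups did not overlap, with a difference of -0.24 (SE 0.08, 95% interval -0.49 to 0.01, limma unadjusted p = 0.0538, adjusted p = 1). Other tested probe sets of the gene had differences of -0.15 and -0.02. Slc1a2, the astrocyte glutamate carrier GLT-1, was dim, with all 4 arrays at 2.07.

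All 9 genes of the Slc38 family of sodium-coupled neutral amino acid carriers were tested, and 6 were lower in the mutant, with a median of -0.21. That median was 0.00 without mutant replicate 1 and -0.06 without either wild-type array, so it did not hold its size. With the stricter dim filter, which kept fewer of the genes, it was -0.05. Slc38a1 and Slc38a2, which supply glutamine and alanine, differed by 0.08 (SE 0.12) and -0.05 (SE 0.13), and a dimmer Slc38a1 probe set by -0.03. Slc38a5 had 5.23 and 5.96 in the mutant arrays and 4.16 and 5.55 in the wild-type arrays, and Slc38a7, which exports glutamine from lysosomes, had 4.50 and 6.38 in the mutant arrays and 5.66 and 6.36 in the wild-type arrays. Their differences of 0.74 (SE 0.62) and -0.56 (SE 0.79) came from arrays that overlapped. Slc38a3, the glutamine carrier SNAT3, lay at 3.27 and 3.22 in the mutant arrays and 3.87 and 3.30 in the wild-type arrays, close to the dim level, a difference of -0.34 (SE 0.23).

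Sugar carriers had 8 of 17 genes tested, 4 higher, 3 lower and 1 at a difference of 0, with a median of 0.01, and 3 of them did not overlap, all lower (background 12.1%). The gene at 0 had the same value on all 4 arrays and so carries no measurable difference. The median was -0.14 with wild-type replicate 1 left out, 0.01 without mutant replicate 1, and -0.18 with the stricter dim filter, which left only 3 of the genes. Beside Slc5a3, the lower genes were Slc2a4, the insulin-regulated glucose carrier GLUT4, and Slc37a4, which takes glucose 6-phosphate into the endoplasmic reticulum. Slc2a4 had 5.01 and 4.99 in the mutant arrays and 5.07 and 5.54 in the wild-type arrays (difference -0.31, SE 0.20), and Slc37a4 had 8.82 and 8.85 in the mutant arrays and 8.92 and 9.09 in the wild-type arrays (difference -0.18, SE 0.09). In each of them the gap to the nearer wild-type array was small.

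Slc2a13, a proton-coupled carrier of myo-inositol, had 5.44 and 6.92 in the mutant arrays and 5.56 and 5.49 in the wild-type arrays. One mutant array was high and the other overlapped the wild type, with a difference of 0.66 (SE 0.59) that ranged between -0.09 and 1.40 with an array left out. Its difference and that of Slc5a3 were opposite in sign, and only the Slc5a3 arrays separated.

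Ion carriers had 20 of 50 genes tested, 13 higher and 7 lower in the mutant, with a median of 0.06; 3 genes were higher without overlap (background 12.2%) and 2 lower (background 12.1%), shares near the background. The median was 0.16 without mutant replicate 1, but -0.09 when mutant replicate 2 was left out and -0.04 without wild-type replicate 1.

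Of the Slc12 family of chloride carriers 6 of 6 tested genes had a difference above 0 (background 49.7%), with a median of 0.07. This was not kept with 1 array left out: without mutant replicate 2 the median was -0.05, with 3 of 6 above 0, and without wild-type replicate 1 it was 0.03, again with 3 of 6. The family was singled out after its values were seen. Slc12a2, the chloride importer NKCC1 that keeps chloride high in immature neural cells, had 10.87 and 11.23 in the mutant arrays and 10.94 and 11.15 in the wild-type arrays (difference 0.01, SE 0.18). Slc12a5, the exporter KCC2 of maturing neurons, lay near the dim level at 3.43 and 3.19 in the mutant arrays and 3.24 and 3.19 in the wild-type arrays (difference 0.09, SE 0.12). Both differences are smaller than their errors. Slc12a4, the potassium-chloride exporter KCC1, had 4.37 and 4.69 in the mutant arrays and 3.54 and 4.21 in the wild-type arrays without overlap, a difference of 0.66 (SE 0.30, 95% interval -0.27 to 1.58).

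Of the bicarbonate and proton carriers, Slc4a4, the sodium bicarbonate cotransporter NBCe1, had 8.16 and 8.14 in the mutant arrays and 7.57 and 8.06 in the wild-type arrays (difference 0.34, SE 0.20). A dimmer probe set of Slc4a4 differed by -0.29, also without overlap, so the probe sets of this gene give opposite directions. Slc9a5, a sodium-proton exchanger of neurons, had 4.15 and 4.72 in the mutant arrays and 5.17 and 4.76 in the wild-type arrays (difference -0.53, SE 0.28). Slc20a1, the phosphate carrier PiT-1, differed by -0.08 (SE 0.20).

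Mitochondrial carriers, here the Slc25 family, had 30 of 40 genes tested. They split evenly, 15 higher and 15 lower in the mutant, with a median of -0.00 and a median size of 0.083. Without overlap 4 genes were higher (background 12.2%) and 4 were lower (background 12.1%), shares near the background. Without mutant replicate 1 the median was 0.09, and without mutant replicate 2 it was -0.04.

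For the main energy carriers differences were small and none passed the test. Slc25a4, the adenine nucleotide translocator ANT1, had 14.12 and 14.29 in the mutant arrays and 14.24 and 14.28 in the wild-type arrays (difference -0.06, SE 0.09), and Slc25a5, ANT2, had 14.54 and 14.43 in the mutant arrays and 14.55 and 14.49 in the wild-type arrays (difference -0.03, SE 0.08). Slc25a3, the phosphate carrier, had 14.32 and 14.38 in the mutant arrays and 14.22 and 14.30 in the wild-type arrays (difference 0.08, SE 0.08). The 95% intervals of these 3 genes stayed within -0.34 and 0.32.

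At the brightest probe sets the largest difference of the class was that of Slc25a16, at 7.64 and 7.87 in the mutant arrays and 7.54 and 7.07 in the wild-type arrays (difference 0.45, SE 0.21). Slc25a53 had 6.35 and 6.69 in the mutant arrays and 6.12 and 6.34 in the wild-type arrays (difference 0.30, SE 0.17). Slc25a15, an ornithine carrier, had a difference of 0.28 (SE 0.22) at its brightest probe set, and its dimmer ones ranged between -0.13 and 0.62. Slc25a12, the aspartate-glutamate carrier aralar of the malate-aspartate shuttle, had 8.27 and 8.36 in the mutant arrays and 8.39 and 8.61 in the wild-type arrays (difference -0.18, SE 0.11). Slc25a16, Slc25a53 and Slc25a12 separated the genotypes, but their intervals reached past 0. Slc25a37, mitoferrin-1, which imports iron for haem synthesis in erythroid cells, was at 8.54 and 8.59 in the mutant arrays and 8.47 and 8.36 in the wild-type arrays (difference 0.15, SE 0.08), and Slc25a38, a glycine importer for haem synthesis, differed by -0.14 (SE 0.10) in the other direction.

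**Figure D3:**
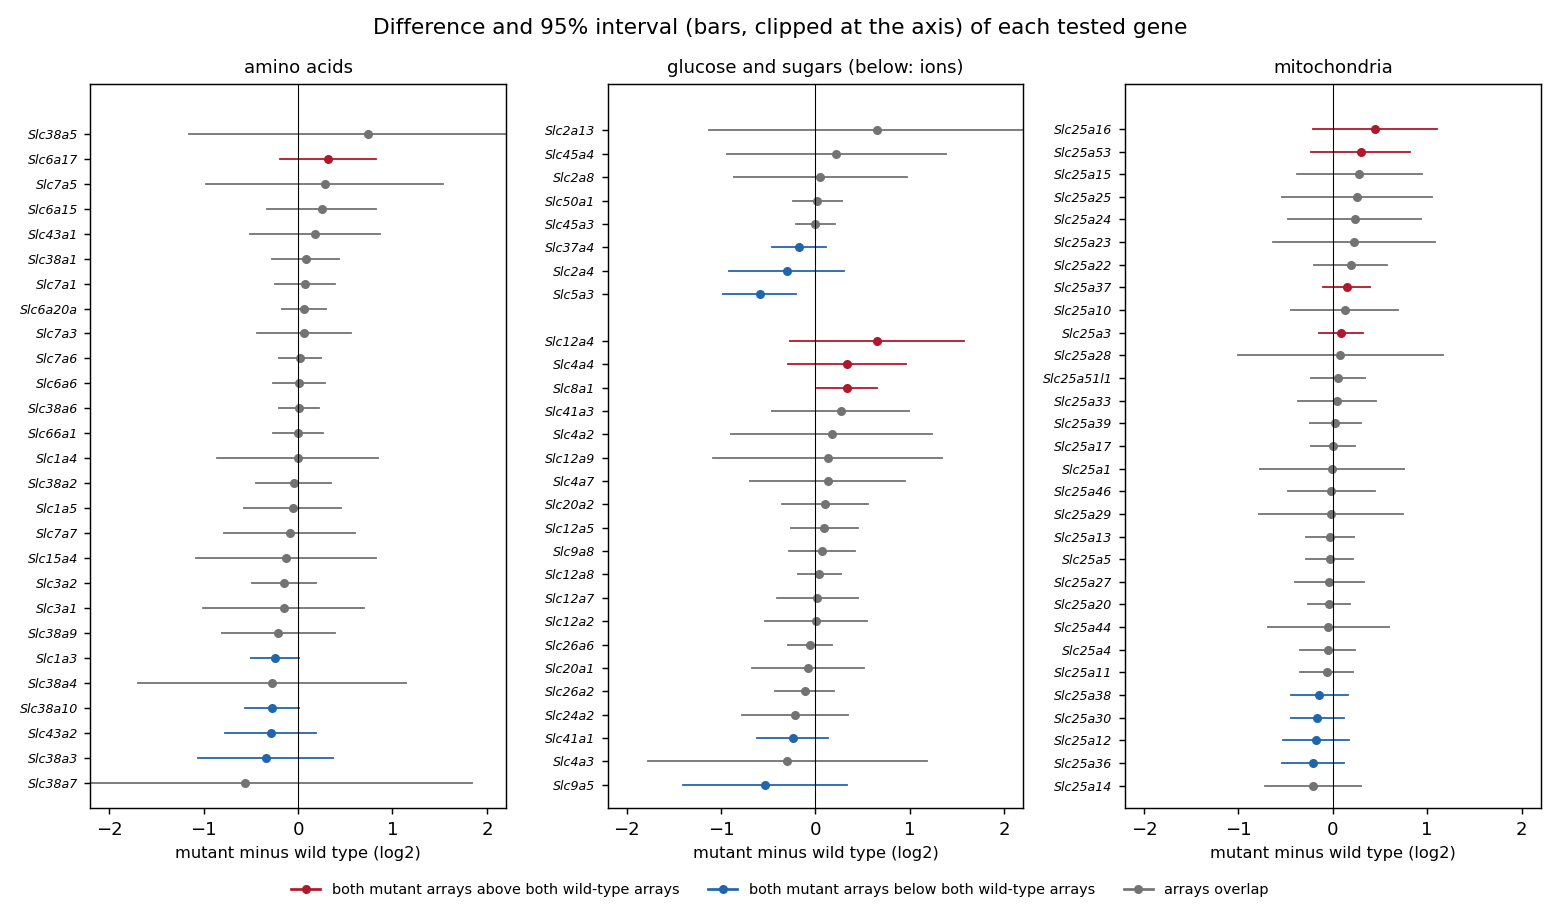
Difference of each tested gene of 4 substrate classes, mutant minus wild type in log2 GCRMA units, with limma's 95% interval (bars, clipped at the axis); red, both mutant arrays above both wild-type arrays, blue, both below, grey, overlapping. Among the plotted genes the interval excludes 0 for Slc5a3 and Slc8a1.

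Metal carriers had 19 of 25 genes tested, 14 higher and 5 lower in the mutant, with a median of 0.09; 5 genes of 19 were higher without overlap (background 12.2%) and 0 lower (background 12.1%). The class median was 0.03 without mutant replicate 2. Of the Slc39 family, whose members bring zinc into the cytosol, 9 of 12 genes were tested and all 9 were higher in the mutant at their brightest probe set (background 49.7%), with a median of 0.22, 4 of them without overlap (background 12.2%). Dimmer probe sets did not all follow: those of Slc39a6 differed by -0.16 and -0.04, beside that of Slc39a14 given above. Without mutant replicate 2 the median was 0.09 and 7 of 9 were higher. The Slc30 family, which moves zinc out of the cytosol, had 6 of 9 genes tested, 3 higher and 3 lower, and a median of -0.01. The families and Slc39a6 were singled out after their values were seen, and no difference between them was tested.

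Slc39a1, an importer at the cell surface, had 10.58 and 10.50 in the mutant arrays and 10.39 and 10.26 in the wild-type arrays, apart by a difference of 0.22 (SE 0.09). Slc39a11 had 7.56 and 7.86 in the mutant arrays and 7.24 and 7.48 in the wild-type arrays (difference 0.35, SE 0.17). In Slc39a7, which releases zinc from the endoplasmic reticulum, the mutant arrays at 9.32 and 9.85 overlapped the wild-type arrays at 9.16 and 9.33 (difference 0.34, SE 0.23). Slc39a8 differed by 0.20 (SE 0.19) and Slc39a10 by 0.08 (SE 0.14).

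**Figure D4:**
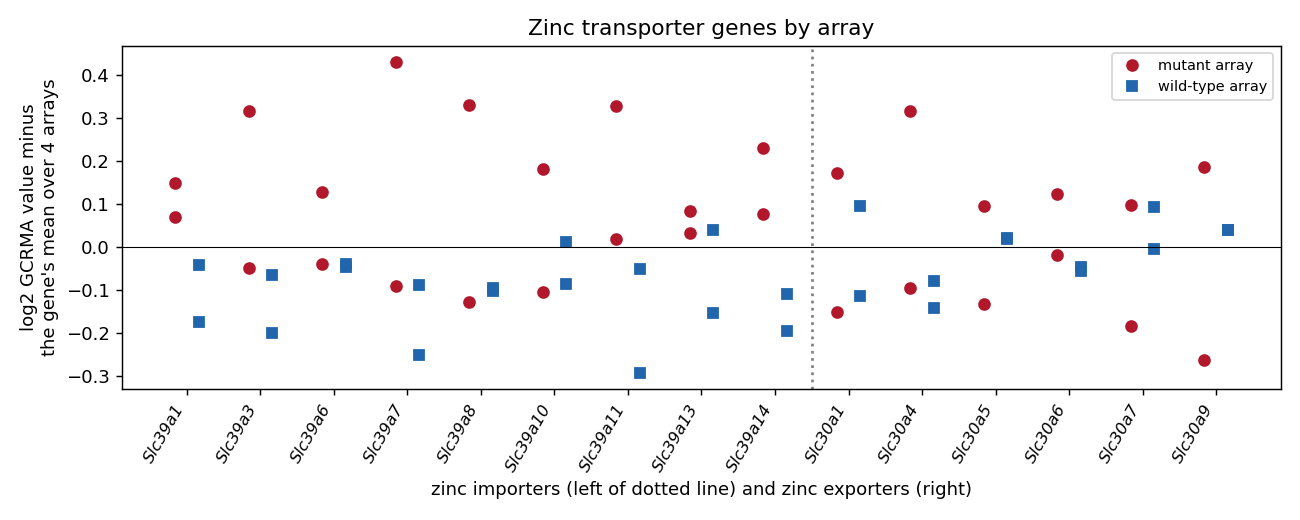
Log2 GCRMA value on each array minus the gene's mean over the 4 arrays, for the 9 tested zinc importers (left of the dotted line) and the 6 tested zinc exporters (right); red circles are mutant arrays and blue squares wild-type arrays. In most importers 1 mutant array lies well above the wild-type arrays and the other close to them, while the exporters show no common direction.

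Carriers with a role in haem and iron were 10 of 10 tested, 7 higher and 3 lower, with a median of 0.05, beside the higher erythroid markers given above. Slc11a2, the iron importer DMT1, differed by 0.08 (SE 0.09), with a dimmer probe set at -0.31, and Slc40a1, ferroportin, by 0.03 (SE 0.08). Slc40a1 lay near the dim level, at 3.71 and 3.71 in the mutant arrays and 3.62 and 3.74 in the wild-type arrays. Its other probe sets were at 2.07 on all 4 arrays. Slc48a1, a haem carrier, had a difference of -0.12 (SE 0.27), and Slc46a1, the proton-coupled folate carrier that also takes haem, one of -0.17 (SE 0.23). At the brightest probe sets none of these 4 differences exceeded its error.

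Of 16 carriers listed for neurotransmitters, 2 were tested. Slc17a6, which loads glutamate into vesicles, was dim at 2.07 and 2.07 in the mutant arrays and 2.07 and 2.26 in the wild-type arrays, and Slc32a1, which loads GABA and glycine, was at 2.07 on all 4 arrays. The tested ones were Slc6a9, a glycine carrier, and Slc18a2, the vesicular monoamine carrier VMAT2. The brightest Slc6a9 probe set gave the same value, 5.09, on all 4 arrays and so carries no measurable difference. A dimmer tested probe set of Slc6a9 differed by -0.08 (SE 0.09). Slc18a2 had 3.34 and 4.17 in the mutant arrays and 2.63 and 3.21 in the wild-type arrays. Both wild-type arrays lay under the dim level, so the probe set passed the filter through the mutant arrays alone and the size of the difference is not read. Other probe sets of Slc18a2 were dim.

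Among the 22 carriers with known roles in neural tissue, 18 were tested, 7 higher and 11 lower, with a median of -0.02. Of 10 carriers of the blood-brain barrier, 6 were tested and 4 were higher, with a median of 0.04, beside the higher endothelial markers.

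Carriers of nucleosides, vitamins and organic ions had 22 of 47 genes tested, 9 higher and 13 lower, with a median of -0.03, which was 0.05 with mutant replicate 1 left out and 0.04 without wild-type replicate 2. Apart from Slc19a2, the largest differences were those of the nucleoside carriers Slc29a3 (-0.59, SE 0.41) and Slc29a1 (0.44, SE 0.29). Slc29a3, a lysosomal member, had 4.52 and 5.50 in the mutant arrays and 5.76 and 5.45 in the wild-type arrays, and Slc29a1, at the cell surface, had 5.10 and 5.52 in the mutant arrays and 4.58 and 5.16 in the wild-type arrays. Arrays overlapped in both, and a dimmer Slc29a3 probe set differed by 0.15. Slc23a2, the ascorbate carrier, differed by -0.07 (SE 0.22), Slc6a8, which takes up creatine, by 0.29 (SE 0.30), Slc33a1, the acetyl-CoA carrier of the endoplasmic reticulum, by 0.10 (SE 0.31, with a dimmer probe set just below 0), and Slc22a17 by -0.06 (SE 0.09).

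Carriers of carboxylates and lipids had 7 of 18 genes tested, 2 higher and 5 lower, with a median of -0.10, which was 0.07 with mutant replicate 1 left out and 0.01 without wild-type replicate 2. Slc16a6, of the monocarboxylate carrier family, had 7.17 and 7.27 in the mutant arrays and 7.44 and 8.04 in the wild-type arrays (difference -0.52, SE 0.25). Its dimmer probe set read 5.43 and 6.37 in the mutant arrays and 6.88 and 6.90 in the wild-type arrays, at -0.99 (SE 0.37) the largest difference of any carrier probe set. Both probe sets were lower in the mutant without overlap, with limma unadjusted p-values of 0.12 and 0.0702 and an adjusted p of 1 each. The fatty acid carriers Slc27a1 and Slc27a4 differed by -0.34 (SE 0.34) and 0.32 (SE 0.44), and Slc16a13 by 0.07 (SE 0.08).

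Nucleotide sugar carriers of the Golgi had 5 of 5 genes tested, 2 higher and 3 lower, with a median of -0.04, which was 0.04 without mutant replicate 1. Slc35a3, which carries UDP-N-acetylglucosamine, had 7.28 and 7.20 in the mutant arrays and 7.51 and 7.32 in the wild-type arrays, lower without overlap (difference -0.17, SE 0.11), and Slc35a1, the CMP-sialic acid carrier, differed by 0.14 (SE 0.16, with a dimmer probe set just below 0) and Slc35a4 by -0.12 (SE 0.12). Of the 4 genes left in other or unassigned, Slc66a3 was lower without overlap (difference -0.21, SE 0.10), Slc66a2 and Slc7a6os differed by -0.03 (SE 0.16) and -0.08 (SE 0.18), and Slc4a1ap by 0.02 (SE 0.08).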

How the data were processed

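The deposited log2 values give each probe set 1 number per array. Per the submitters' processing notes the authors used GCRMA, of a version that the sources here do not give. It corrects for background from the probes' base composition, puts the arrays on a common scale and combines the probes of a set. Probe sets at the lowest value, or with the same value on all 4 arrays, carry no measurable difference. Arrays give no read depth, and 2 arrays per genotype limit the precision. Per the labels, cRNA was made from TRIZOL-extracted total RNA.

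Of 31099 probe sets, 57 controls and 12417 dim ones (mean under the 40th percentile) were left out. limma 3.58.1 in R 4.3.3 fitted genotype alone (lmFit, eBayes, Benjamini-Hochberg over 18625 probe sets, threshold 0.05). The fit was first run on simulated data with the same spread for every probe set. That run was required only to return the size of planted differences, so it does not give the error rate in these data. Genes were named from the platform annotation; all 269 carriers matched RefSeq. Classes follow the family, with single genes moved by their known substrate. Genes named are those with an unadjusted p under 0.05, the 3 largest differences and 2 highest means per class, and tested members of lists of transmitter, haem and iron, barrier and neural carriers. Members and lists were chosen with earlier results of these data known. Promoters are RefSeq's.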

Additional observations from a re-analysis of the deposited data

How the results depend on the processing

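Carrier probe sets called at an adjusted p under 0.05 stayed at 0 under all alternatives that were run, while the count over all tested probe sets, 0 in the fit reported, was 1 with the stricter dim filter (60th percentile) and 2 each with quantile normalization and median centring. Carrier probe sets at an unadjusted p under 0.05, 6 as reported, were 2 with the stricter filter, 21 with the replicate block and 6 to 14 with 1 array left out. With the block the carriers' share was 11.1%, against 6.41% of all tested probe sets, so there it lay above the background. The share was 1.77% against 2.70% with the stricter filter, 7.37% against 6.38% without mutant replicate 1, 6.32% against 6.17% without mutant replicate 2 and 4.74% against 3.20% without wild-type replicate 1. The replicate numbers are shared by both genotypes, but the labels do not say what they share; the deviations of replicate 1 correlated at 0.43 over probe sets, from 2 pairs only, so the block is an alternative. With 1 array left out, the lone array is assumed to vary like the other genotype. Such fits gave class medians of -0.093 to 0.16 for ions, -0.042 to 0.091 for mitochondria and -0.12 to 0.039 for nucleotide sugars. The last was -0.019 with the stricter filter, over 4 genes. Of 640 single-gene values, 595 kept their sign. Slc1a4 turned to 0.010 with quantile normalization. With 1 array left out, 33 of 66 named genes changed sign, with these ranges of differences: Slc12a2 -0.17 to 0.18, Slc12a5 -0.026 to 0.21, Slc12a7 -0.13 to 0.17, Slc1a4 -0.35 to 0.34, Slc1a5 -0.25 to 0.14, Slc20a1 -0.31 to 0.15, Slc22a17 -0.13 to 0.022, Slc23a2 -0.33 to 0.20, Slc25a1 -0.26 to 0.25, Slc25a28 -0.28 to 0.44, Slc25a39 -0.038 to 0.093, Slc25a4 -0.14 to 0.027, Slc25a5 -0.087 to 0.024, Slc27a1 -0.74 to 0.050, Slc27a4 -0.20 to 0.83, Slc2a13 -0.086 to 1.40, Slc33a1 -0.28 to 0.47, Slc35a1 -0.031 to 0.30, Slc38a1 -0.019 to 0.19, Slc38a2 -0.19 to 0.096, Slc38a7 -1.51 to 0.38, Slc39a10 -0.068 to 0.22, Slc39a8 -0.029 to 0.43, Slc40a1 -0.034 to 0.090, Slc46a1 -0.42 to 0.089, Slc48a1 -0.44 to 0.20, Slc4a1ap -0.022 to 0.062, Slc66a2 -0.18 to 0.13, Slc6a6 -0.048 to 0.077, Slc6a8 -0.079 to 0.66, Slc7a1 -0.0099 to 0.16, Slc7a5 -0.095 to 0.66, Slc7a6os -0.24 to 0.084. The causes were not tested. The lowest adjusted p of a named gene under any alternative was 0.727, and 0 were called. The 2-fold count was not run with an array left out, since the pairings change. Medians of the Slc39, Slc30, Slc38 and Slc12 families were added after seeing the data. The number of arrays and values at the lowest level limit what can be detected.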

Other observations

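The carriers left out by name and other carriers outside the chosen letters gave these values. Slc2a3, the neuronal glucose carrier GLUT3, had 10.10 and 10.36 in the mutant arrays and 11.04 and 11.01 in the wild-type arrays. Its difference was -0.80 (SE 0.12, limma unadjusted p = 0.0057). Slc2a1, the general glucose carrier GLUT1, had 11.67 and 12.07 in the mutant arrays and 12.14 and 12.39 in the wild-type arrays, a difference of -0.40 (SE 0.20). Both were lower in the mutant without overlap. Slc4a1, the anion exchanger of red cells, had 7.24 and 7.84 in the mutant arrays and 6.35 and 6.86 in the wild-type arrays, also without overlap and higher in the mutant by a difference of 0.94. The lactate carriers Slc16a1 and Slc16a3 differed by 0.05 and -0.18. Of the 5 genes left out by name, 0 were called at an adjusted p under 0.05.

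Of 3 tested Slco genes, 0 were called at an adjusted p under 0.05. Slco1c1, a carrier of thyroid hormone at the blood-brain barrier, was singled out after its values were seen. It had 6.19 and 6.01 in the mutant arrays and 5.17 and 5.66 in the wild-type arrays, a difference of 0.68 (SE 0.22, limma unadjusted p = 0.046). Slco4a1 differed by 0.11, and Slco3a1 had the same value on all 4 arrays. The endothelial markers given in the report were higher on the same arrays, and their part in this value was not tested. Of the Slc35 families b to g, 12 genes were tested, 6 higher and 6 lower in the mutant, with a median of 0.01.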
